A study of Mus musculus with 16 samples.

Results

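In this promoter capture Hi-C (P-CHi-C) data set of mouse liver, 1976 promoter interactions were listed at ZT12 and at no other timepoint. Each is a pair of HindIII restriction fragments, a bait that carries a captured promoter and a contacted fragment, with a CHiCAGO score of 7 or more in the ZT12 list and with no entry in the lists of ZT0, ZT6 and ZT18. They made up 2.60 percent of the 76144 pairs with a score of 7 or more at ZT12 (95% Wilson interval 2.48 to 2.71%), and the 4 lists together held 247177 distinct pairs. The score weighs the reads of a pair against the background fitted for its distance, pairs under 5 are not listed, and absence from a list therefore means a score under 5 and not a low read number that was measured. The members were chosen by these scores, so that the scores given here are a description.

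The livers came from wild-type C57BL/6 males with food always at hand. By the study's methods the males were 8 weeks old and were then kept for 2 weeks in equal phases of light and dark. ZT12 is the start of the dark phase. At each of the 4 timepoints 3 pools of 2 livers were made, the first of them sequenced on 2 lanes, which gave 16 samples of whole liver. The pools of a timepoint were merged before interactions were called, so that each timepoint is 1 list with no replicate error. No difference between timepoints could be tested, read numbers are not in the lists, and all intervals here cover counting error only and treat pairs of a shared bait as independent. The study also gives a summary of list totals, and in it the numbers of the lists labelled ZT6, ZT12 and ZT18 stand under ZT18, ZT6 and ZT12. The sample labels were followed here, and each statement on ZT12 is a statement on the list labelled ZT12.

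Promoters reach distal regulatory elements, and other promoters, through chromatin loops, and capture of promoter fragments from a Hi-C library makes such contacts visible at the resolution of single restriction fragments. In the liver the clock drives rhythmic transcription of genes of metabolism and of the clock itself. Activators such as BMAL1 and CLOCK bind E-boxes, the DBP family binds D-boxes, and REV-ERB and ROR receptors bind ROR elements (RORE), while the glucocorticoid receptor, which answers to a hormone that is itself rhythmic, binds glucocorticoid response elements (GRE).

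The fragment listed most often as the bait of a member was that of Fkbp5, the gene of a co-chaperone of the glucocorticoid receptor that is itself induced by glucocorticoids, and windows from its contacted fragments are shown first because the members lay in a single stretch of the gene. All coordinates are on the mm9 build. In the promoter windows, from 250 bases upstream to 49 bases downstream of the annotated start and given on the gene's strand, capitals mark the HindIII site AAGCTT that ends the bait fragment of Kif11, the E-box CACGTG of Per1, and the RORE core TAGGTCA of Dbp. In the windows from contacted fragments, given on the plus strand, capitals mark only the match named on the line. This is a match to the GRE pattern (GNACA, any 3 bases, TGTNC) or to the E-box. The first of these windows also holds an E-box, which is left in lower case.
Fkbp5 contacted fragment at -77.0 kb, GRE match, chr17:28576439-28576558, plus strand: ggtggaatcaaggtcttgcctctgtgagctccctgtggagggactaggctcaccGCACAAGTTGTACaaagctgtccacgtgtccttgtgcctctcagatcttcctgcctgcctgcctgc
Fkbp5 contacted fragment at -73.6 kb, GRE match, chr17:28579311-28579430, plus strand: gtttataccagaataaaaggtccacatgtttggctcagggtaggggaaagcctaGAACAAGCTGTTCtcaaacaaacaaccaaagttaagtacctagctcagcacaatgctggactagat
Fkbp5 contacted fragment at -70.5 kb, E-box, chr17:28582100-28582219, plus strand: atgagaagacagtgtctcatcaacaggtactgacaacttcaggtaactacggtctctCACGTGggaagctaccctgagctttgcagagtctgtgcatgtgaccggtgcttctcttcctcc
Kif11 promoter, chr19:37450643-37450942, plus strand: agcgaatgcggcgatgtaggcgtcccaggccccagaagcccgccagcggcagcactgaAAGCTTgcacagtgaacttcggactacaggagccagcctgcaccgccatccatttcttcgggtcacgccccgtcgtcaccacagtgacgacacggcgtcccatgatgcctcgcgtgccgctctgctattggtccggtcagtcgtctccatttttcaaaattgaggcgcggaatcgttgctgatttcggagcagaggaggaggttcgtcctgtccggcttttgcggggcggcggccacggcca
Per1 promoter, chr11:68908469-68908768, plus strand: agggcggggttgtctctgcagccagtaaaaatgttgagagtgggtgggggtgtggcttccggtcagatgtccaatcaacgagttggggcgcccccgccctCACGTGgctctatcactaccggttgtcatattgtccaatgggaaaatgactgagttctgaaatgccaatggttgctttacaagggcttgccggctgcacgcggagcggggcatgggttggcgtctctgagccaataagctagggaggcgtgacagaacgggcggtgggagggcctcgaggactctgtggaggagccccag
Dbp promoter, chr7:52960208-52960507, plus strand: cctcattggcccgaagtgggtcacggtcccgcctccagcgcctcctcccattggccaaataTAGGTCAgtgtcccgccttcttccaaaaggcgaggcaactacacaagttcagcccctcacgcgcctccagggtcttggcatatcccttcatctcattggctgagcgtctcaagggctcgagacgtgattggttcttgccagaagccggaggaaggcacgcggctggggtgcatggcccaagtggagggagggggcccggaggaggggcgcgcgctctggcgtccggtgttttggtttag

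The Fkbp5 bait, chr17:28652593-28654609, had 22 listed contacts at ZT12, beside 15 at ZT18, 9 at ZT6 and 8 at ZT0. With a score of 7 or more, 15 were listed at ZT12, 3 at ZT0, 5 at ZT6 and 8 at ZT18. Both ZT12 counts include the 7 members, which the rule keeps out of the other lists, so that it fixed a part of the difference. The same holds for the ZT12 counts of the other baits and fragments with members given below. The 7 members lay between positions 28564842 and 28598228, from 86.7 to 57.4 kb downstream of the bait (negative distances below lie toward lower coordinates), all inside the transcribed part of Fkbp5. Along the gene from the far to the near side of this stretch their scores were 7.73, 9.09, 9.74, 11.43, 12.61, 7.95 and 8.51. The fragment with 12.61, chr17:28581857-28584337, also carries an annotated start of a copy of the small nuclear RNA 7SK.

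Some fragments between and beside the members are not members because they were also listed at another timepoint, and they had higher scores at ZT12 too. The fragment at -62.7 kb had scores of 15.44 at ZT12, 6.03 at ZT6 and 6.66 at ZT18 and was not listed at ZT0. The fragment at -76.2 kb had 14.2 at ZT12 and 6.29 at ZT18, and was not listed at ZT0 and ZT6. Elsewhere in the gene the order did not hold throughout. Nearer to the promoter, the fragment at -44.1 kb had 5.50 at ZT12, 7.24 at ZT18 and 5.89 at ZT6, and the fragment at -37.9 kb had 6.71 at ZT12 and 7.76 at ZT18. Farther away, the fragment at -109.5 kb was listed at all 4 timepoints, with 11.1 at ZT6, 10.9 at ZT18, 8.48 at ZT12 and 7.96 at ZT0, so that ZT12 was not the highest. In the study's list of circadian genes, Fkbp5 has its acrophase, the time of the highest RNA level, at ZT12.

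**Figure D1:**
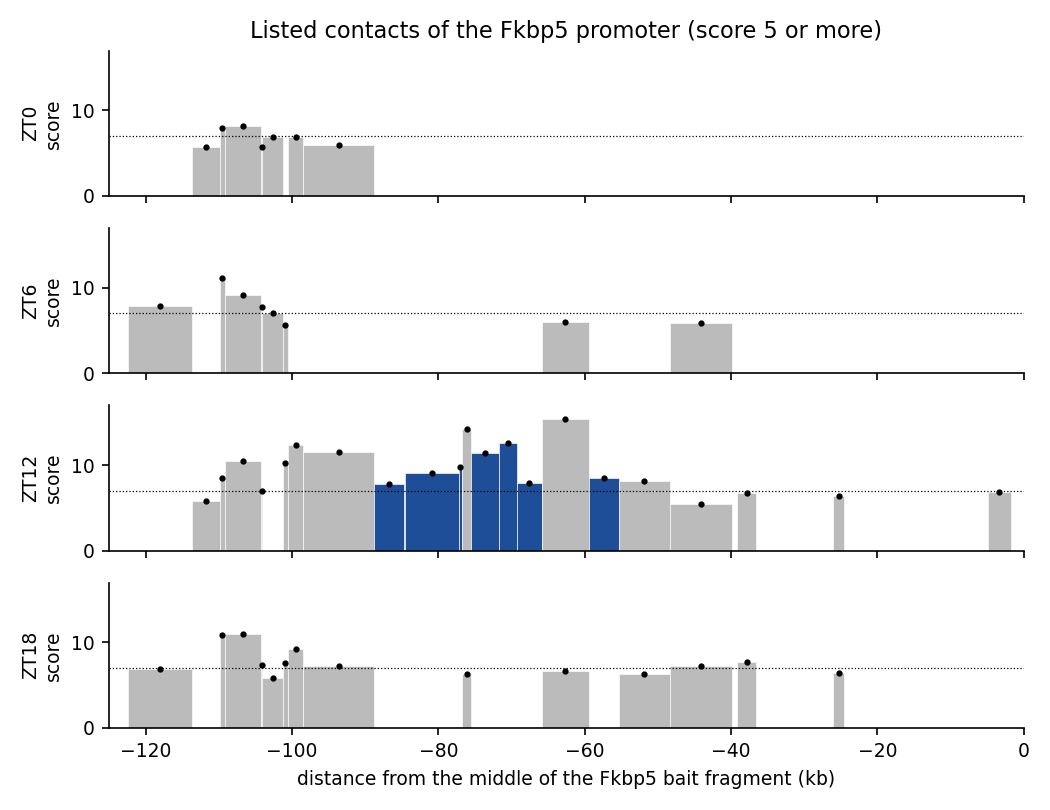
Listed contacts of the Fkbp5 bait by distance from the middle of the bait (x axis, kb; negative values lie toward lower coordinates, which is downstream for this gene) and CHiCAGO score (y axis) in 1 panel per timepoint. Bars are as wide as the fragments, dots mark each score, blue bars are the 7 members, grey bars are other listed contacts and the dotted line marks a score of 7. The stretch from -86.7 to -57.4 kb is nearly filled at ZT12, empty at ZT0, and holds 1 fragment at ZT6 and 2 at ZT18.

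A second group of members lay on chromosome 19, around Fgfbp3, which encodes a secreted protein that binds fibroblast growth factors, and Kif11, which encodes a motor protein of the mitotic spindle. Counted by the position of the bait, the window from 37 to 38 Mb, next to the Fgfbp3 bait, held 9 members among 80 interactions with a score of 7 or more (11.3%), beside 0, 1 and 0 interactions listed only at ZT0, ZT6 and ZT18. The Fgfbp3 bait, chr19:36991113-36995544, had 13 listed contacts at ZT12, 2 at ZT0, 3 at ZT6 and 1 at ZT18. Its 4 members were the Kif11 promoter fragment (score 16.2, distance 458 kb), a further Kif11 fragment (10.3), an intergenic fragment (8.09) and a fragment of Ide, which encodes the insulin-degrading enzyme (7.61). The fragment between both Kif11 members had 22.24 at ZT12 and 6.82 at ZT18, and was not listed at ZT0 or ZT6.

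**Figure D2:**
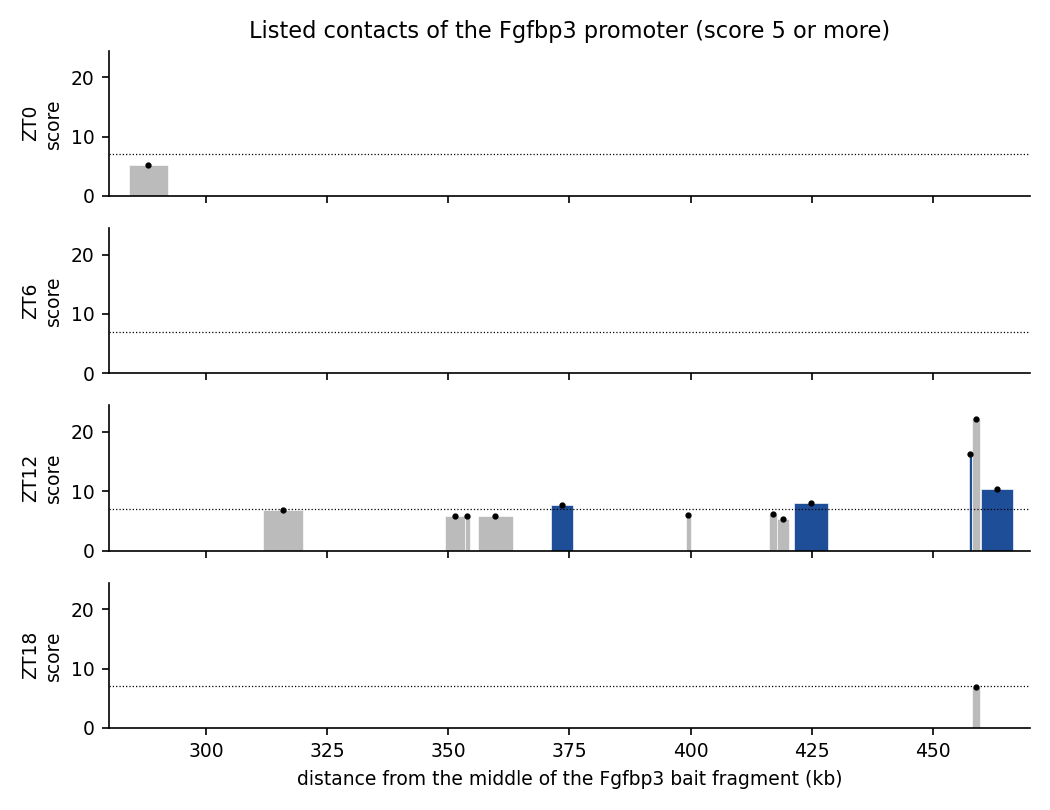
Listed contacts of the Fgfbp3 bait on the Kif11 side by distance from the middle of the bait (x axis, kb) with their CHiCAGO score (y axis) in 1 panel per timepoint. Blue bars are the 4 members, grey bars other listed contacts, dots mark each score and the dotted line a score of 7. At ZT0 and ZT18 1 contact each was listed in this range, at ZT6 none, and at ZT12 the scores reached 22.24.

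On the same chromosome a bait that carries an annotated start of a U6 small nuclear RNA, chr19:37305176-37313419, had 6 members, all inside Btaf1, which encodes an ATPase that removes TATA-binding protein from DNA. Their scores were 12.27, 12.38, 7.41, 15.49, 9.76 and 13.33, at distances from 306 to 276 kb. Other fragments of Btaf1 listed at several timepoints had higher scores still. The fragment at -268 kb had 39.18 at ZT12, 7.47 at ZT6 and 10.46 at ZT18. The bait was listed with 52 fragments at ZT12, 46 at ZT6, 33 at ZT0 and 30 at ZT18. In this stretch, as in Fkbp5, some of the members were separated by fragments that were listed at other timepoints too and had their highest score at ZT12. Nearer to the bait this ended, and the fragment at -261 kb was listed at ZT0 (5.49) and ZT6 (5.59) and not at ZT12 or ZT18.

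The highest score of all members, 23.79, was that of the pair of the Snhg9 bait, which carries a host gene of small nucleolar RNAs, and the fragment of Syngr3, a gene of a synaptic vesicle protein, at 37.2 kb. The Syngr3 fragment, chr17:24810236-24828459, was an end of 7 members in all, as many as the Fkbp5 bait but here as the contacted end, the other 6 with scores from 7.84 to 11.49, and it was well connected at each timepoint, with 74 contacts at ZT12, 64 at ZT0, 54 at ZT6 and 64 at ZT18. The Snhg9 bait itself had 11 contacts at ZT12, 8 at ZT0, 5 at ZT6 and 7 at ZT18. Ptplad1, which encodes an enzyme of the elongation of very long fatty acids, was the end of 2 of the highest promoter-promoter members, with Dennd4a, a regulator of RAB proteins (15.47), and with Tipin, which protects replication forks (13.04). The Ptplad1 fragment had 4 contacts at ZT12, 1 at ZT18 and none at ZT0 and ZT6. The remaining promoter-promoter members with the highest scores joined Arhgap5, a regulator of small GTPases, with Heatr5a (12.91) and the bait shared by Orc3 and Rars2 with Mdn1, which acts in ribosome assembly (12.54). The last of these spanned 1820 kb.

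Among the 12 members with the highest scores were also the pair of the bait shared by Gipr, the receptor of an incretin hormone, and Eml2 with an intron of Relb, a subunit of NF-kappaB (13.43), and a contact of the Kif11 bait with an intergenic fragment at 465 kb (13.36). The bait of Btn2a2, a gene of an immune regulator of the butyrophilin family, had a contact at 1458 kb (12.67). The bait shared by Gm11399 and Gm11400 had a contact on another chromosome (12.98). Of all members 7 joined different chromosomes. These 12 were exceptions in height. The median score of the members was 7.61, 1363 members (69.0%) had a score under 8 and 88 had 10 or more.

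Just inside the threshold, with a score of 7, were pairs of Gm11967 with Kremen1, of Gpc5 and of Stmn4, and just outside it, with 6.99, pairs of Cxcr2, Hs3st3a1 and Hoxb6. Without the minimum of 7, 21149 pairs were listed at ZT12 only, of which 207 had a score from 7 to under 7.1 and 217 from 6.9 to under 7. The share of ZT12 pairs that were absent from the other lists was 31.7% at scores from 5 to under 6, 7.02% from 7 to under 8, 2.78% from 8 to under 9 and 0.0336% at 15 or more. The same rule gave 2091 interactions at ZT0 (2.88 percent), 2808 at ZT6 (3.64 percent) and 1955 at ZT18 (2.58 percent). The order of the timepoints by this share depended on what counts as absent: where a score under 7 did, the shares were 13.6% at ZT12, 12.9% at ZT0, 15.03% at ZT6 and 13.3% at ZT18.

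The members spanned longer distances than the rest of the ZT12 list. Their median distance was 242 kb, beside 135 kb for all pairs with a score of 7 or more at ZT12, and 70.9% (68.9 to 72.9%) spanned more than 150 kb, beside 45.1%. Among pairs with a score from 7 to under 8, which puts both sets in the same range, the medians were 222 kb for members and 136 kb for pairs that were listed at another timepoint too, with 68.4% and 45.6% over 150 kb. Interactions over 1 Mb made up 4.42% of members and 1.13% of all. Only 19 members (0.965%) spanned under 25 kb, beside 7.27% of all. This was common to all timepoints: 79.4% of the interactions listed only at ZT0, 76.4% of those only at ZT6 and 75.1% of those only at ZT18 spanned more than 150 kb, each above the 70.9% of ZT12.

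**Figure D3:**
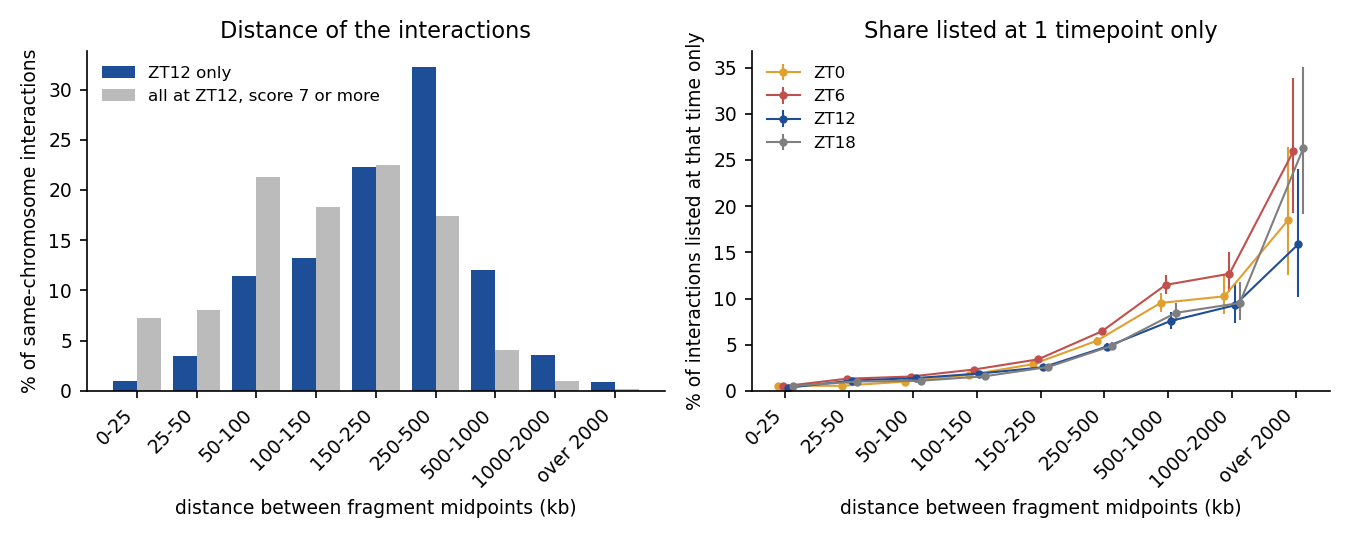
Left, share of same-chromosome interactions (y axis, %) in each class of distance between fragment midpoints (x axis, kb) for the 1976 members (blue) and for all pairs with a score of 7 or more at ZT12 (grey). Right, share of pairs with a score of 7 or more that were listed at that timepoint only, with 95% Wilson intervals, in the same classes for each timepoint; the share at ZT12 rose from 0.344% under 25 kb to 15.9% over 2 Mb.

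Most members had a contact of the same bait close by at another timepoint. For 1176 members (59.5%) a fragment that adjoins the contacted fragment was listed with the bait at ZT0, ZT6 or ZT18, for 75.7% a contact lay within 5 kb and for 1623 (82.1%, interval 80.4 to 83.8%) within 10 kb. For 54.1% a contact within 10 kb was listed at all 3 other timepoints. The other sets were much alike. Of the interactions listed only at ZT0, ZT6 and ZT18, 80.9%, 77.6% and 78.4% had a contact within 10 kb at any other timepoint. A contact within 10 kb at all 3 other timepoints was listed for 55.5%, 49.5% and 50.2% of them. These shares were not computed for all pairs of the list. The 353 members without any within 10 kb spanned a median of 316 kb, against 227 kb for the others, and 40.5% of them (35.5 to 45.7%) joined a pair of baits, against 13.7% (12.2 to 15.5%). For 90 members none lay within 100 kb. Among the members named above, the pair of Dennd4a and Ptplad1 was 46.2 kb, that of Tipin and Ptplad1 55.3 kb and that of Orc3 and Mdn1 652 kb from the nearest such contact, while contacts adjoining those of Snhg9, Relb and Heatr5a were listed at other timepoints.

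The fragments that flank the contacted fragments were also compared. Some of them were members themselves, 47 of the 3938 adjoining flanks, so that the rule fixed a part of what follows. An adjoining fragment was listed with the bait at ZT12 for 28.5% of the flanks (27.1 to 29.9%), at ZT0 for 23.5%, at ZT6 for 24.2% and at ZT18 for 25.1%. From 7 to 10 fragments away the shares were 18.7% at ZT12, 16.02% at ZT0, 17.0% at ZT6 and 17.0% at ZT18. With all flanks left out that were listed at a single timepoint, the adjoining shares were 27.2% (25.7 to 28.7%) at ZT12 and 24.0% at ZT0. They were 24.5% (23.1 to 26.0%) at ZT6 and 25.8% (24.4 to 27.4%) at ZT18. The ZT12 interval overlaps those of ZT6 and ZT18. This setting was added after the data had been seen. Over all flanks, each set of interactions listed at 1 timepoint only had its highest share of adjoining fragments at its own timepoint, with 27.9% for ZT0, 27.3% for ZT6 and 24.7% for ZT18. Flanks share libraries and caller with the members and are not independent of them.

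**Figure D4:**
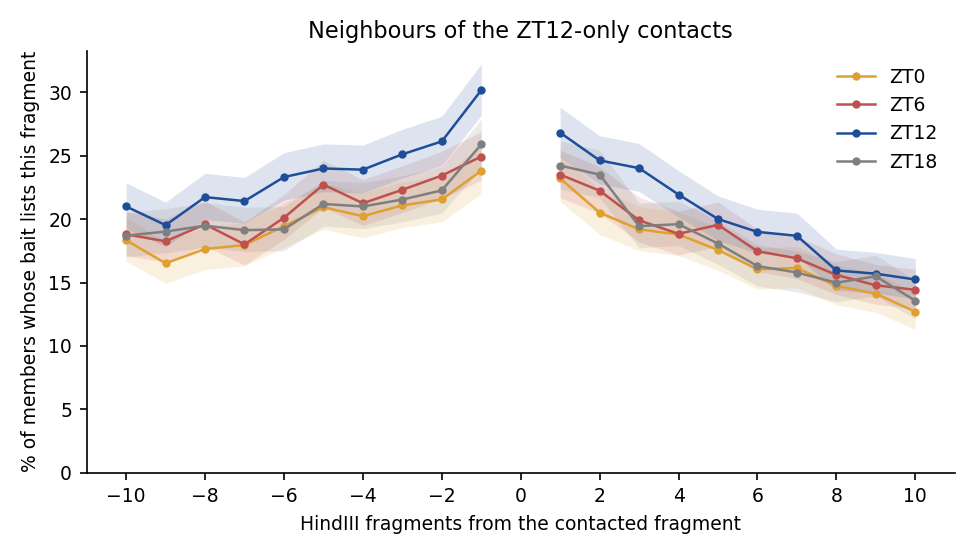
Share of the members (y axis, %) whose bait was listed with the fragment 1 to 10 HindIII fragments to either side of the contacted fragment (x axis), by the timepoint of the list. Bands are 95% Wilson intervals, and some flanks are themselves members. The ZT12 line lies above the other 3 lines at every step.

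The 1976 members came from 1685 baits, of which 1457 had 1 member, 183 had 2, 32 had 3 and 13 had 4 or more. On 1456 of these baits a protein-coding gene starts. The baits with members were well connected beyond the members. Counting contacts listed at 2 or more timepoints, which no member is, they had 15.7 contacts per bait at ZT12, 14.6 at ZT0, 15.2 at ZT6 and 15.2 at ZT18, beside 10.6, 10.2, 10.5 and 10.5 for all baits with a score of 7 or more at ZT12. This was common to all timepoints. Baits with an interaction listed only at ZT0, ZT6 or ZT18 had 16.2, 14.9 and 15.6 such contacts at their own timepoint, in each case the highest of the 4 lists. Of the 1685 baits with members, 705 (41.8%) also had an interaction listed only at another timepoint. The same share was 46.1% for the baits of the ZT0 set, 40.1% for ZT6 and 44.6% for ZT18. It was not computed for all baits of the list.

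Besides Fkbp5 and the U6 bait, 11 baits had 4 members in the bait column. Those with the highest summed scores were, after Fgfbp3, the baits of Neu3, a sialidase of gangliosides, Six5, a homeobox factor, SNORA17, 4930562C15Rik, Foxo1, 5730403B10Rik and Gm4795, and the rest included Foxo3. Six5 was also the contacted end of 1 further member, with the Irf2bp1 bait (8.38). The Neu3 members reached promoter fragments of Klhl35 (10.17) and SNORA41 (12.03) and fragments with the starts of Kcne3, a potassium channel subunit (10.04), and Mtap6, a microtubule-associated protein (9.17). The baits of 4930562C15Rik and 5730403B10Rik lie in the same window, chromosome 16 from 4 to 5 Mb, where 14 of 166 interactions (8.43%) were members, beside 1, 3 and 4 listed only at ZT0, ZT6 and ZT18. The 4930562C15Rik bait was listed with 47 fragments at ZT12, 17 at ZT0, 28 at ZT6 and 28 at ZT18. Its members lay in 5730403B10Rik (8.99), in Dnaja3 and Nmral1 (8.63), in Coro7 and Dnaja3 (8.24) and in 4930562C15Rik itself (7.68). The Gm4795 bait had as many contacts at ZT0 as at ZT12 (38), so that several members did not always go with a larger total.

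Members were spread over the genome, with 917 of the 1809 windows of 1 Mb that held an interaction holding at least 1 member. The window with the most, chromosome 7 from 31 to 32 Mb, had 26 members among 992 interactions (2.62%), close to the share over the whole list, and 19, 16 and 22 interactions listed only at ZT0, ZT6 and ZT18. The window of Fkbp5, chromosome 17 from 28 to 29 Mb, held 10 members among 106 (9.43%) and 1 interaction each listed only at ZT0, ZT6 and ZT18.

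Of the 10 core clock genes with an interaction of score 7 or more at ZT12, 3 had a member, among them Bhlhe40 and Per1, beside 2353 of 14742 genes overall (15.96%), and members were 5 of their 133 pairs (3.76%, interval 1.62 to 8.50%), beside 2.60% of all pairs. Bhlhe40, a repressor that acts on E-boxes, had 3 members, with scores of 8.93 at 458 kb, 8.70 at 12.8 kb and 8.69 at 9.35 kb, and 128 listed contacts at ZT12, 108 at ZT0, 106 at ZT6 and 113 at ZT18. Per1, a repressor of CLOCK and BMAL1, had 1 member, in Kdm6b, a histone demethylase (8.30 at 311 kb). The next fragment of Kdm6b, at 315 kb, had 9.24 at ZT12 and 9.82 at ZT18 and was not listed at ZT0 or ZT6. The Per1 bait was listed with 19 fragments at ZT12, 12 at ZT18, 7 at ZT6 and 5 at ZT0. Per2 had none, although its bait was listed with 19 fragments at ZT12, 13 at ZT18, 10 at ZT6 and 9 at ZT0, and the baits of Npas2, Cry2, Nr1d1 and Tef had none.

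Of 15 clock output genes, 7 had members (Dbp, Gsk3a, Klf10, Klf15, Klf9, Tsc22d3 and Wee1), beside 15.96% of all genes, with 10 members among 348 pairs (2.87%, interval 1.57 to 5.21%), beside 2.60% of all pairs. Dbp, a transcription factor of D-boxes, had 3 members. One joined it with the promoter fragment shared by Irf3 and Bcl2l12 at 707 kb (9.38), and the other 2 reached Ptov1 at 837 and 842 kb (7.70 and 7.74). Its bait had 24 contacts at ZT12, 25 at ZT6, 19 at ZT18 and 11 at ZT0. Wee1, a kinase that holds back mitosis, had 1 member (7.55), and Tsc22d3, a mediator of glucocorticoid action, had 1 (7.51).

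The list of hepatocyte transcription factors had 7 of 18 genes with members and 14 members among 281 pairs (4.98%, interval 2.99 to 8.19%), beside 2.60% of all pairs and 5 among 93 (5.38%, interval 2.32 to 12.0%) for markers of other liver cell types. Foxo1 and Foxo3, which drive the response to fasting, gave 4 each. The Foxo1 members lay in intergenic fragments between 130 and 407 kb from its bait with scores of 7.50, 7.11, 9.20 and 9.59, and its bait was listed with 112 fragments at ZT12, 96 at ZT6, 88 at ZT18 and 72 at ZT0. The Foxo3 members reached from 83.2 to 283 kb with scores of 7.16, 7.30, 8.02 and 8.86, and the bait had 58 contacts at ZT12, 50 at ZT0, 47 at ZT6 and 46 at ZT18. Foxa3, a factor that opens liver chromatin, was contacted from the baits of Cblc (11.2) and of Apoc2 and Apoc4 (8.03). Among the other members of this list were 1 each of Cebpb (7.37), Foxa1 (7.95) and Foxp1 (7.03).

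The lists of liver metabolism held single members for the most part, and the share of all genes with a member, 15.96%, stands beside their counts. By pairs, members were 3.91% of glucose metabolism (interval 1.68 to 8.82%), 3.16% of lipid synthesis (1.67 to 5.89%), 1.54% of fatty acid oxidation (0.272 to 8.21%), 1.74% of bile acids (0.478 to 6.12%) and 1.93% of amino acids and urea (0.754 to 4.86%), and each of these intervals holds the 2.60% of all pairs. In glucose metabolism 4 of 23 genes had members, among them Fbp1, of gluconeogenesis, with 2 (7.74 and 7.16), Slc37a4, the glucose-6-phosphate transporter (8.58), and Ugp2, which makes UDP-glucose (8.93). In lipid synthesis 7 of 30 genes had members, among them Fasn, fatty acid synthase (8.36), and Lpin1 (7.05). Fatty acid oxidation had 1 of 14 genes, bile acids 2 of 13, Cyp7b1 (7.85) and the bile acid importer Slc10a1 (7.36), and amino acids and urea 4 of 21, Cth (8.31), Glul (7.27), Oat (7.01) and Tdo2 (9.53). Tdo2, which degrades tryptophan, was the contacted promoter of the bait of Fga, a chain of fibrinogen, at 1049 kb.

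Among plasma proteins 11 of 50 genes had members, with 10 members among 528 pairs (1.89%, interval 1.03 to 3.45%, beside 2.60% of all pairs). The highest joined Ambp, a precursor of a protease inhibitor, with the start of Orm2, an acute-phase protein, at 207 kb (10.77). In insulin and growth signalling 13 of 609 pairs were members (2.13%, interval 1.25 to 3.62%), and 9 of 33 genes had members, including Ghr, the growth hormone receptor, with 3 (9.26, 8.85 and 7.57), Igf1 (7.80) and Gcgr, the glucagon receptor (8.48). The Ghr bait was listed with 114 fragments at ZT12, 105 at ZT6, 90 at ZT18 and 76 at ZT0. Nuclear receptors had 4 of 18 genes with members (2.42% of pairs, interval 1.04 to 5.53%), xenobiotic enzymes 3 of 15 (3.74%, 1.46 to 9.22%) and heat shock genes 2 of 19 (1.94%, 0.534 to 6.81%), the last Dnaja1 (8.49) and the cold-inducible Rbm3 (7.77). Of the xenobiotic enzymes, the bait of Ugt1a1, which conjugates bilirubin, had a contact on another chromosome (12.52) and 1 at 87 Mb (9). Markers of other liver cell types had 5 of 16 genes with members, all at scores under 8 except that of Cd79a, a B cell receptor component, which shares its bait with Arhgef1 and was joined with the bait of Gsk3a (9.10). Whole liver was used, so that contacts cannot be assigned to a cell type, and fewer cells of a type and fewer contacts per cell cannot be told apart.

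In all, 175 members (8.86%, interval 7.68 to 10.2%) had an end at the promoter of a gene of the study's circadian list, beside 9.71% of all pairs with a score of 7 or more at ZT12. The list was drawn up by the study from RNA of livers of the same experiment and is not independent evidence. By acrophase, 88 of the 175 (50.3%, interval 43.0 to 57.6%) belonged to genes with the acrophase ZT12, beside 39.8% (38.6 to 40.9%) of all such pairs at ZT12. The shares were 39.7% among interactions listed only at ZT0, 36.6% among those only at ZT6 and 38.7% among those only at ZT18. The upper ends of their intervals were 47.7%, 43.7% and 46.7%. Each lies above the lower end of the members, 43.0%, so that the interval of the members overlaps those of the ZT0, ZT6 and ZT18 sets. Fkbp5 gave 7 of the 88, and without its members the share was 81 of 168 (48.2%, interval 40.8 to 55.7%). That interval also overlaps the one of all such pairs at ZT12, 38.6 to 40.9%. Counted by promoter the share was 67 of 144 (46.5%, interval 38.6 to 54.7%), beside 348 of 908 (38.3%, interval 35.2 to 41.5%), and these intervals overlap. By promoter the ZT0, ZT6 and ZT18 sets had 40.6%, 34.2% and 40%, with intervals that overlap that of the members too. In the order of the study's summary of totals, the list labelled ZT18 would hold ZT12, with 58 of 150 (38.7%).

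**Figure D5:**
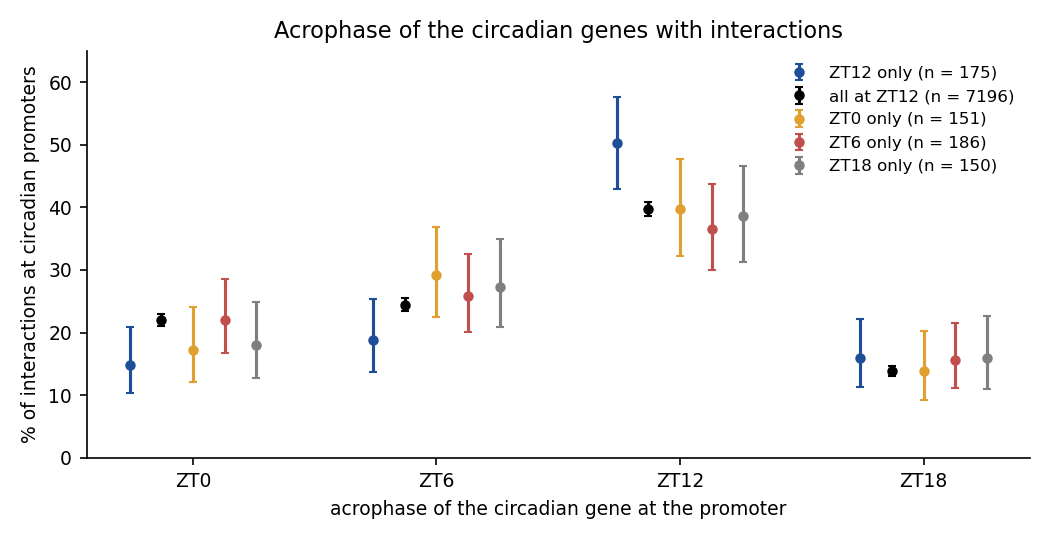
Share of the interactions at circadian promoters (y axis, %) by the acrophase of the circadian gene (x axis), for the ZT12-only members (blue), all pairs with a score of 7 or more at ZT12 (black) and the interactions listed only at ZT0, ZT6 or ZT18. Bars are 95% Wilson intervals and n is the number of interactions with 1 acrophase. The ZT12-only point at the acrophase ZT12, 50.3%, is the highest of the 5. Its interval overlaps those of the interactions listed only at ZT0, ZT6 or ZT18.

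The members with circadian genes of the highest scores were mixed in acrophase. With the acrophase ZT12 were Fkbp5 (12.61 and 11.43), Klf13, a Krüppel-like factor (12.42, in Mtmr10 at 355 kb), Mgrn1, a ubiquitin ligase (11.37), and Sip1, of the assembly of small nuclear ribonucleoproteins (9.82). With ZT0 were Ddit3, a factor of the endoplasmic reticulum stress response (11.21), Chordc1, a co-chaperone (10.62), and Tjp3, of tight junctions (10.16). With ZT6 were Cblc, a ubiquitin ligase (11.2), and Dis3l2, an exoribonuclease (10.14), and with ZT18 were Heatr5a (12.91) and Serinc3 (9.84). Of the circadian genes with 3 or more members, Fkbp5, Foxo3, Dbp and Bhlhe40 were listed with the acrophase ZT12 and Ddc, which encodes an enzyme of monoamine synthesis, with ZT0. The bait of Cacybp, a gene with the acrophase ZT18 that had 2 members, was listed with 4 fragments at ZT12, 1 at ZT0 and none at ZT6 and ZT18.

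The class and the sequence of the contacted fragments differed little from the rest of the list. A pair of baits was joined by 366 members (18.5%, interval 16.9 to 20.3%), beside 18.7% of all pairs. Of the 1610 other contacted fragments, 36.3% were intergenic, 31.1% overlapped an exon, 30.4% lay in introns and 2.17% held an annotated start that is no bait, beside 36.6%, 33.2%, 28.5% and 1.77% of all. Contacts inside the gene that starts on the bait, as in Fkbp5, were 6.52% (5.42 to 7.83%) of members and 11.3% of all, and the members were also the more distant set. The median length was 2338 bases and the median GC content 45.7%, beside 2619 bases and 45.8%.

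Motifs were searched on both strands in the central 1000 bases of the contacted fragments that are no bait, and a match is a description of the letters and not a bound site. The E-box CACGTG was found in 12.8% of the member windows (11.3 to 14.52%) and 12.6% of all windows, the D-box TTATGTAA in 4.66% and 4.26%, the RORE core TAGGTCA in 8.57% and 9.55%, the GRE pattern (GNACA, any 3 bases, TGTNC) in 2.36% (1.72 to 3.22%) and 1.85%, and the core (CCANNAG, any 2 bases, GGC) of the insulator protein CTCF in 9.69% and 10.1%. In promoter windows of 300 bases the E-box was found in 8.81% of the 1963 protein-coding promoters on baits with members and in 8.90% of the 12364 on all baits of the list. The GRE pattern was in 0.408% and 0.348% of these promoters. It was chosen after Fkbp5 had been seen to lead. Of the 7 Fkbp5 members, those at 77.0 and 73.6 kb, shown above, hold 1 match each in their full length of 437 and 3786 bases. Both also hold the E-box, as do other Fkbp5 members. The fragment of 3786 bases also holds 2 D-box matches and 1 RORE core. The Fkbp5 member with the highest score, 12.61, holds no GRE match but an E-box and a CTCF core. The shares given for windows of 1000 bases are no background for full lengths.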

How the data were processed

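Promoter capture Hi-C of mouse liver was analysed from 1 list of interactions per timepoint. According to the study's methods and the labels, the authors mapped reads to mm9 and filtered them with HiCUP, and called interactions with CHiCAGO on the merged pools of a timepoint, with versions not given in the sources used here. The deposited values are a CHiCAGO score per fragment pair, with pairs under 5 left out; the other deposited columns are fragment positions, used as given. The lists held 151529 pairs at ZT12, 146262 at ZT0, 154775 at ZT6 and 151347 at ZT18. Reads per library are not in these lists, and the read statistics per library that the study reports were not used here.

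Pairs were matched without regard to the order of their fragments. Gene starts were taken from GENCODE vM1, which is on the same build, and 129886 of the 129887 listed fragments were found in a HindIII digest of that genome. Circadian genes and their acrophases came from the study's list of 1254 genes, of which 1135 start on a bait. Distances were measured between fragment midpoints. Shares were given with 95% Wilson intervals and no test was made. Sequences were read from the same genome. The rule was tested on simulated lists. Python 3.11.15, pandas 2.3.3, scipy 1.17.1 and matplotlib 3.10.9 were used.

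The members and the gene lists were chosen with earlier results of these data known. Genes were named where they start on a bait of the 12 highest members, of the 10 baits with the most members, of a member from the gene lists, of the 12 highest members of circadian genes, of the 3 pairs nearest to the threshold on each side or of the 6 highest promoter-promoter members. Syngr3, Ptplad1 as a hub, Cacybp, the windows of 1 Mb, genes that a contacted fragment overlaps, clock genes without members and contacts that are no members were described after their values had been seen. Alternatives in the minimum score, in the meaning of absence, in list length, in the order of timepoints and in the tolerance on fragments were run. Values of some genes of the lists and some sequences are not reported here.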

Additional observations from a re-analysis of the deposited data

How the results depend on the processing

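No paired analysis was possible because interactions were called on merged pools, 1 list per timepoint, and for the same reason no replicate could be left out. The values below are the share of pairs at ZT12 that are members, the share of members over 150 kb, joining a pair of baits, at circadian promoters and with a contact of the bait within 10 kb at another timepoint, which were 2.60%, 70.9%, 18.5%, 8.86% and 82.1% as reported, and the shares listed only at ZT0, ZT6 and ZT18. With a minimum score of 6 the members were 6.16% of pairs, 66.0% were over 150 kb and 78.8% had a nearby contact, and the shares at ZT0, ZT6 and ZT18 were 6.38%, 7.73% and 6.13%. With a minimum of 8 they were 1.08%, with 76.5% over 150 kb, 23.3% joining a pair of baits and 10.3% at circadian promoters, and the other timepoints had 1.31%, 1.65% and 1.03%. With a minimum of 10 they were 0.261%, with 86.0%, 34.1%, 11.4% and 77.3% in the order above, and 0.356%, 0.410% and 0.211%. Where absence meant a score under 7, they were 13.6%, with 54.6% over 150 kb and 90.7% with a nearby contact, and 12.9%, 15.03% and 13.3%. With the same number of pairs from each list they were 2.79%, and 3.18%, 3.80% and 2.77%. In the order of the study's summary the ZT12 set is that of the list labelled ZT18, with 75.1% over 150 kb, 22.6% joining a pair of baits and 78.4% with a nearby contact, and 2.60% and 3.64% stand for ZT6 and ZT18. Counting an adjoining fragment, or any within 10 kb, as the same contact left 800 (1.05%) or 353 (0.464%) members. With a tolerance of 5 or 25 kb, 75.7% or 89.3% had a nearby contact. With flanks listed at a single timepoint left out, a setting chosen after seeing the data, an adjoining fragment was listed at ZT12 for 27.2% in place of 28.5%. Why the values shifted was not tested. Members over 150 kb stayed the larger part in each setting with a value for distance. These settings were the minimum scores, absence under 7, equal list length, the order of the summary and the gap between fragments. Most values moved, as 40 left the interval of the value reported above and 16 stayed within it. Among the 16 is the ZT0 share in the order of the summary, which could not move because that list keeps its place.

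The study reports read statistics per library, but they were not used here. Whether a pair missing from a list lacked reads or lacked depth was not tested.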
